A study of Mus musculus with 2 samples.

Results

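The genes examined were 43 protein-coding genes that fibroblasts use to build and remodel the extracellular matrix. They were taken by name from a list made by function, of 22350 protein-coding genes on the autosomes and X in the annotation of mouse build NCBIM37 (mm9), and all 43 were found there. They fall into 8 roles, from fibrillar collagens to fibroblast surface and cytoskeletal markers. The measurements were chromatin immunoprecipitation sequencing (ChIP-seq) tag counts from untreated 3T3 fibroblasts of embryonic origin with the genotype Ccnd1-/-, in which the gene of cyclin D1 is disrupted. These cells carry FLAG-tagged cyclin D1 from a stably introduced retroviral MSCV vector. Chromatin for the tested library was recovered with M2, an antibody to the FLAG tag, and for the background library with normal mouse IgG, both from cells of the same kind. The comparison asks at which genes chromatin was recovered with anti-FLAG beyond the recovery with IgG. Both libraries share the deletion and the vector. A library from cells without the FLAG tag, the amount of cyclin D1 made from the vector and RNA levels were not analysed here, so the fibroblast label was not checked against expressed markers.

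The extracellular matrix of connective tissue is built mainly by fibroblasts. Fibrillar collagen chains are hydroxylated and folded in the endoplasmic reticulum, secreted, trimmed, and cross-linked outside the cell by lysyl oxidases, while elastin is laid onto fibrillin microfibrils and proteoglycans space the fibrils. Metalloproteinases degrade these polymers and their tissue inhibitors restrain them. Cyclin D1, a cyclin of G1 phase and partner of CDK4 and CDK6, has also been found on chromatin together with transcription factors, and has no known DNA-binding domain of its own.

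The anti-FLAG library held 9259840 tags of 36 bp and the IgG library 9312346, and IgG counts were scaled by 0.994, the ratio of these totals. Each antibody had 1 library, so there was no check between replicates: every test compares these 2 libraries, and every interval covers counting error only. Introns 1 to 3 of Ccnd1 held 0 anti-FLAG and 0 IgG tags, against 16.3 and 16.4 at the genome-wide mean, whereas its exons, which the vector may also carry, held 44 and 16. The libraries covered GC-rich DNA differently. Where 500-bp windows lay more than 10 kb from any transcription start site (TSS), the anti-FLAG count was 0.678 times the scaled IgG count if GC was 24 to 26%, 0.955 times if 40 to 42%, 1.34 times if 50 to 52%, and 2.18 times if 60 to 62%. Results are therefore given against scaled IgG tags and again after correction by the ratio of such distant windows of the same GC content.

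The promoters with the smallest p in the test below are shown first. That test counted tags within 1 kb of the TSS, a wider stretch than the sequences printed here. In the 250 bp upstream of the TSS, Adamtsl4 had 2 anti-FLAG against 0 IgG tags, Loxl2 1 against 1 and Col1a2 3 against 2. Fn1 had 1 against 1 there, Vim 5 against 0 and Mmp14 9 against 3. Each printed sequence is the 300 bp upstream of the TSS in NCBIM37, 5′ to 3′ in the direction of transcription, read from the reference genome. Capitals mark CCAAT boxes (reverse, ATTGG), GC boxes (GGGCGG, which reads CCGCCC in reverse), TATA boxes (TATAAA, searched in either orientation), AP-1 elements (TGANTCA) and cAMP response elements (TGACGTCA). The stretches are Adamtsl4 at chr3:95491841-95492140 on the minus strand, Loxl2 at chr14:70008678-70008977 on the plus strand, Col1a2 at chr6:4454514-4454813 on the plus strand, Fn1 at chr1:71699775-71700074 on the minus strand, Vim at chr2:13495254-13495553 on the plus strand and Mmp14 at chr14:55050141-55050440 on the plus strand.
Adamtsl4: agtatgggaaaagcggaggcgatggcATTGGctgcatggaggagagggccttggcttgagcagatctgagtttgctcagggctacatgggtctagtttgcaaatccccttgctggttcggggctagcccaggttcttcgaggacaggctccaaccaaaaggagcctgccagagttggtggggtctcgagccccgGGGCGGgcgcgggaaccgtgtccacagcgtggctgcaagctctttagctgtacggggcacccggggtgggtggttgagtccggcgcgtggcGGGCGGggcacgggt
Loxl2: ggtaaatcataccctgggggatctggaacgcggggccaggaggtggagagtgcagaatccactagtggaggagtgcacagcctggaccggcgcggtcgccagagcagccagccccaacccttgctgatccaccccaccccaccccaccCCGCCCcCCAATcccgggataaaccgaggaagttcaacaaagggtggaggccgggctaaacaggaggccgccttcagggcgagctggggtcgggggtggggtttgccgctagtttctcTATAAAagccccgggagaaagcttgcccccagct
Col1a2: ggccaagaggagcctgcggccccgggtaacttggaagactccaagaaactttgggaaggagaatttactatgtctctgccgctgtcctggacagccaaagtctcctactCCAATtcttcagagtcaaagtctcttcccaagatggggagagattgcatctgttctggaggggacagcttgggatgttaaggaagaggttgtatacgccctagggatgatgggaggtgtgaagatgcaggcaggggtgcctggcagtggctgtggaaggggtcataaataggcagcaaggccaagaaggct
Fn1: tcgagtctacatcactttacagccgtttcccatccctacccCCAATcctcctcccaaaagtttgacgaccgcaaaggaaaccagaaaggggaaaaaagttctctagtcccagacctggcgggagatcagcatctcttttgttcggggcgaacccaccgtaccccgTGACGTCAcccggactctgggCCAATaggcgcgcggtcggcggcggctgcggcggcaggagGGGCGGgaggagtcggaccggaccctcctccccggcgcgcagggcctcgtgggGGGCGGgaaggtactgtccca
Vim: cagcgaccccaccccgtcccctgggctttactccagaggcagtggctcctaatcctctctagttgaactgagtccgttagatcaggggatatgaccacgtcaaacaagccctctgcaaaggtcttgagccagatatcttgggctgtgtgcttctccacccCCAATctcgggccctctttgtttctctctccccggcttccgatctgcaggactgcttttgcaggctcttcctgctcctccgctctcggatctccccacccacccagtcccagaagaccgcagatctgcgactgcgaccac
Mmp14: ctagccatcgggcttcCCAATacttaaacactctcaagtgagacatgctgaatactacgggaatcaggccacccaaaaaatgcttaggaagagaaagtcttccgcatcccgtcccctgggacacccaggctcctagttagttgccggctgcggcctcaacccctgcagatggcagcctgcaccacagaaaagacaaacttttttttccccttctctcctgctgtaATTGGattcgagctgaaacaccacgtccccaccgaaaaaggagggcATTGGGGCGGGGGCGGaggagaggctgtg
All 6 hold a CCAAT box, and Fn1 and Mmp14 hold more than 1. Fn1 also has a cAMP response element and Loxl2 a TATA box, which start at positions -135 and -34 from the TSS. In Mmp14 a reverse CCAAT box and a GC box overlap by 1 base, so they print as 1 run of capitals.

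Over the whole list, a CCAAT box stood in 20 of the 43 promoters, against 39.0% of 22344 protein-coding promoters of the same length, and a GC box in 21, against 40.9%. TATAAA was present in 7 (14.5% of all promoters), TGANTCA in 4 (7.12%), TGACGTCA in 1 (2.00%) and the E2F element TTTNGCGC in 1, P4ha1 (1.56%). Every element was counted in either orientation. The AP-1 letters were in the promoters of Fbln2, Lum, Mmp3 and Pdgfrb. A match describes these letters only, and binding of the factors was not measured.

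Within 1 kb of the TSS, anti-FLAG tags exceeded IgG tags at 39 of the 43 genes, were equal at 2 (Fbln1 and Mmp3) and fewer at 2 (Postn and Tnc), while over all genes they were more numerous at 15756 of 22350. The median count was 21 anti-FLAG and 9 IgG tags over the 43 genes, and 11 and 7 over all genes. Together the genes held 953 anti-FLAG and 436 IgG tags, a scaled ratio of 2.20, against 1.70 over all genes. The median log2 ratio, with 1 tag added to each count, was 1.12 over the 43 genes and 0.59 over all genes. Genes with at least 20 tags in the libraries together were tested with a 2-sided exact binomial test adjusted by Benjamini-Hochberg over 10935 such genes. Of the 43 genes, 32 could be tested, and 17 were higher and 0 lower with anti-FLAG at an exact adjusted p under 0.05, where 29.7% of all tested promoters were higher and 0.0914% lower. Because genes with more anti-FLAG tags reach the tag minimum more easily, the 32 tested genes are not the whole list. Smaller ratios also pass where counts are larger. The median counts were larger over the 43 genes, so these shares are not matched for tag number. The plot of promoter tags by gene shows the counts of all 43.

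**Figure D1:**
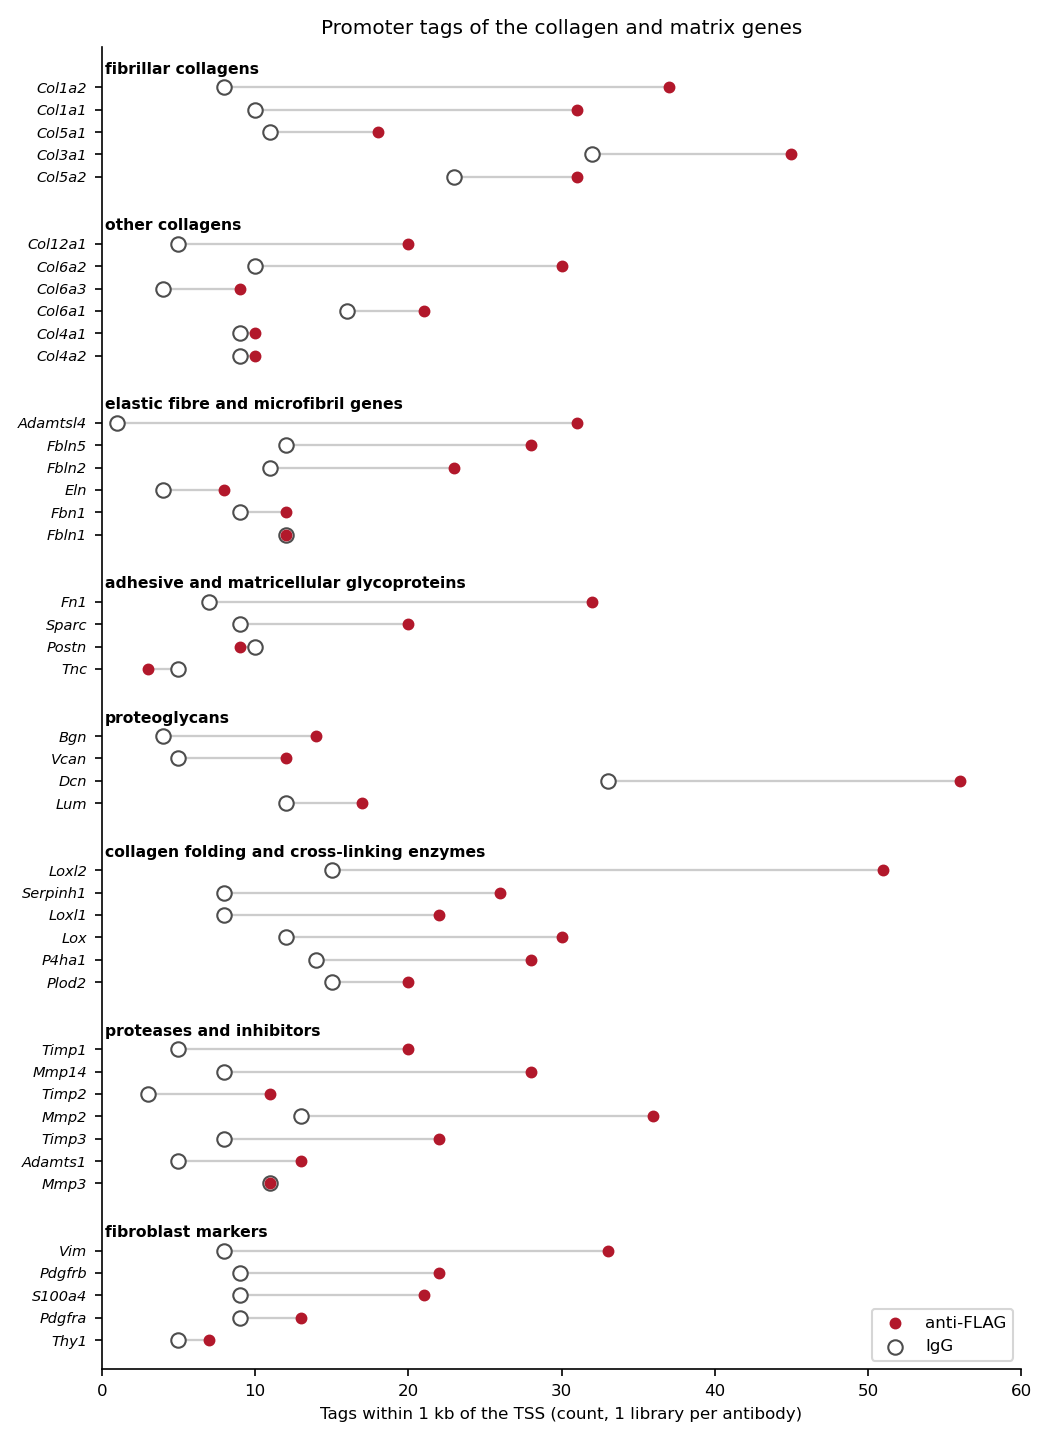
Tags within 1 kb of the TSS of each of the 43 genes, in anti-FLAG (filled red) and IgG (open grey), grouped by role, with 1 library per antibody and counts on the horizontal axis. Anti-FLAG lies to the right of IgG at 39 genes, furthest at Loxl2 with 51 against 15 tags, both points coincide at Fbln1 and Mmp3, and IgG lies to the right at Postn and Tnc.

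The fibrillar collagens divided into the type I genes, which passed the promoter test, and the others, which did not. Col1a2, which encodes the second chain of type I collagen, had 37 anti-FLAG against 8 IgG tags (log2 ratio 2.09, ratio 4.65, 95% exact interval 2.13 to 11.6, exact adjusted p = 0.00049). Col1a1, the gene of the more abundant chain, had 31 against 10 (log2 ratio 1.55, exact adjusted p = 0.00794). Anti-FLAG tags were thus more than 3 times the IgG tags at both type I genes, though few in number. Col3a1, the gene of type III collagen, and Col5a2, a type V chain that nucleates fibrils, lie 191744 bp apart on chromosome 1 by their TSSs and had 45 against 32 and 31 against 23 tags. Their IgG counts were the highest of the fibrillar group, and neither gene passed (exact adjusted p = 0.237 and 0.399). Col5a1 had 18 against 11 (exact adjusted p = 0.306), in a window that also holds the start of the lincRNA 2810430I11Rik at 627 bp, so its tags cannot be assigned to 1 gene. After the GC correction Col1a2 kept a log2 ratio of 1.72 (exact adjusted p = 0.0284), and Col1a1 fell short with 1.00 (0.224). In the narrower window of 500 bp either side, Col1a2 had 11 against 4 tags, under the minimum for a test, so its excess lay mostly further from the TSS.

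Among the other collagens, 2 of 6 passed. Col12a1, whose product decorates the surface of type I fibrils, had 20 against 5 tags (log2 ratio 1.82, exact adjusted p = 0.015), and Col6a2, a chain of beaded-filament collagen VI, had 30 against 10 (1.50, exact adjusted p = 0.0108). Its partner chain Col6a1, with a TSS 102538 bp away on chromosome 10, had 21 against 16 and did not pass (exact adjusted p = 0.535), and Col6a3, on chromosome 1, had 9 against 4. Whether the chains of this 1 complex differed from each other was not tested. Col4a1 and Col4a2, the head-to-head genes of basement membrane collagen IV, start 21 bp apart on chromosome 8 and share 1979 bp of their windows. Each window had 10 tags with anti-FLAG and 9 with IgG, under the tag minimum, in the most GC-rich windows of the 43 genes (63.7 and 63.3% GC). Neither Col12a1 nor Col6a2 passed with the GC correction (exact adjusted p = 0.417 and 0.36).

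The largest ratio of the list belonged to Adamtsl4 (ENSMUSG00000015850.5), a gene on chromosome 3 whose secreted product binds fibrillin microfibrils. It had 31 anti-FLAG tags and 1 IgG tag within 1 kb of its TSS at position 95491840 (ratio 31.2, 95% exact interval 5.20 to 1270.6, exact adjusted p = 6.15e-06). Most of these tags, 9 and 10 of the 31, lay in the 250-bp bins that start 750 and 500 bp upstream, where IgG had 0 tags. It also passed with the GC correction (log2 ratio 3.35, exact adjusted p = 0.00331). Fbln5, which encodes a fibulin needed for elastic fibre assembly, had 28 against 12 tags (log2 ratio 1.17, exact adjusted p = 0.0405). That p lay close to the threshold, and Fbln5 was not past it with the GC correction (0.37) or with a tag minimum of 10, under which more genes are tested. Fbln2 had 23 against 11 (exact adjusted p = 0.0982), Fbn1, the gene of fibrillin-1, 12 against 9 (0.636), and Fbln1 12 against 12. Eln, the elastin gene, had 8 against 4 tags and was not tested. The elastic fibre genes thus ranged from the largest ratio of the list to equal counts.

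Fn1 was the 1 adhesive or matricellular gene that passed. This gene of fibronectin, the adhesive protein on which collagen fibrils assemble, had 32 against 7 tags on chromosome 1 around its TSS at position 71699774 (log2 ratio 2.05, ratio 4.60, 95% exact interval 1.99 to 12.3, exact adjusted p = 0.00128). The start of Apol7d lies 363 bp away, so the tags cannot be assigned to Fn1 alone. Corrected for GC, Fn1 had a log2 ratio of 1.55 and an exact adjusted p of 0.0726. Sparc, which encodes a collagen-binding matricellular protein, had 20 against 9 (exact adjusted p = 0.101). Postn and Tnc, the genes of periostin and tenascin-C, were the members with fewer anti-FLAG than IgG tags, 9 against 10 and 3 against 5, too few for a test.

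Of the small leucine-rich proteoglycans and versican, Dcn passed. Decorin, its product, binds collagen fibrils and limits their width. Dcn had the most promoter tags of the list in both libraries, 56 against 33, and with them the smallest ratio among the genes that passed (log2 ratio 0.75, ratio 1.71, 95% exact interval 1.09 to 2.71, exact adjusted p = 0.0491). In the 250 bp upstream of the TSS the counts were 20 against 1, and in the rest of the window they were nearly even. With a tag minimum of 10, which brings in more genes, Dcn was not past the threshold. Dcn lies in GC-poor DNA (39.6% GC), where the distant windows gave a ratio below 1, so its log2 ratio was 0.88 with the GC correction (exact adjusted p = 0.0835). Its neighbour Lum, the lumican gene 85890 bp further along chromosome 10, had 17 against 12 (exact adjusted p = 0.482). Bgn (biglycan) had 14 against 4 and Vcan (versican) 12 against 5, both under the minimum.

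Genes for collagen folding and cross-linking were all tested, and 4 of 6 passed. The 3 lysyl oxidase genes of the list, whose enzymes start the covalent cross-links of collagen and elastin, were all higher. Loxl2 (ENSMUSG00000034205.8) on chromosome 14 had 51 anti-FLAG against 15 IgG tags around its TSS at position 70008978 (log2 ratio 1.71, ratio 3.42, 95% exact interval 1.89 to 6.55, exact adjusted p = 0.000392). Lox had 30 against 12 (log2 ratio 1.26, exact adjusted p = 0.0248) and Loxl1 22 against 8 (1.36, exact adjusted p = 0.0385). Loxl2 was the member of the 3 that passed with the GC correction, narrowly (log2 ratio 1.24, exact adjusted p = 0.0486), and it did not pass when GC was taken over the window as a whole. The other genes of the family, Loxl3 and Loxl4, are not on the list and are named here with their values known. They had 26 against 12 (exact adjusted p = 0.0675) and 15 against 8 tags (0.249), and neither passed. Loxl1 was not past the threshold with tags left unmoved or with another tag minimum. Serpinh1, which encodes the collagen chaperone HSP47, had 26 against 8 (log2 ratio 1.59, exact adjusted p = 0.0125). P4ha1, the gene of a prolyl 4-hydroxylase subunit that stabilises the triple helix, had 28 against 14 (exact adjusted p = 0.0816), and Plod2, the gene of a lysyl hydroxylase, 20 against 15 (0.52).

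Proteases and their inhibitors had the highest median of the 8 roles, a log2 ratio of 1.41 over 7 genes, and 4 of the 5 tested genes passed. Mmp14, the gene of a membrane-bound collagenase that activates the Mmp2 proenzyme, had 28 against 8 tags (log2 ratio 1.70, exact adjusted p = 0.00731), and Mmp2, a gelatinase gene, had 36 against 13 (1.41, exact adjusted p = 0.00794). Timp1 had 20 against 5 (1.82, exact adjusted p = 0.015) and Timp3 22 against 8 (1.36, exact adjusted p = 0.0385), both genes for tissue inhibitors of metalloproteinases. Enzyme and inhibitor genes were thus both among those higher with anti-FLAG. Timp1 lies within Syn1 and Timp3 within Syn3 on the opposite strand, and the tags carry no information on which gene they belong to. With tags left unmoved or another tag minimum Timp3 was not past the threshold. Within 500 bp of its TSS, Timp3 had 11 against 0 tags, a ratio of at least 3.69 against a floor of 3 IgG counts. Mmp3, the stromelysin gene, had 11 against 11, and Timp2 (11 against 3) and Adamts1 (13 against 5), a gene for a secreted proteoglycan-cleaving protease, were under the minimum. Of these 4 genes, 0 passed with the GC correction (exact adjusted p from 0.173 for Mmp2 to 0.353 for Timp3).

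Vim was the fibroblast marker that passed. This gene of vimentin, the intermediate filament protein of mesenchymal cells, starts at position 13495554 of chromosome 2 and had 33 against 8 tags there (log2 ratio 1.93, ratio 4.15, 95% exact interval 1.88 to 10.4, exact adjusted p = 0.00172). Its GC-corrected log2 ratio was 1.40 (exact adjusted p = 0.102). Pdgfrb and Pdgfra, the genes of the platelet-derived growth factor receptors, had 22 against 9 (exact adjusted p = 0.0594) and 13 against 9 (0.52). S100a4, the gene of the fibroblast-specific protein FSP1, had 21 against 9 (exact adjusted p = 0.0766), and Thy1, a surface glycoprotein gene, 7 against 5. Anti-FLAG counts were above IgG counts at all 5 of these markers, and past the adjusted test at Vim.

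With the GC correction 3 of the 32 tested promoters, Col1a2, Loxl2 and Adamtsl4, were higher with anti-FLAG, where 2.59% of all tested promoters were. The median log2 ratio was then 0.66 over the 43 genes and 0.25 over all genes. GC content and the promoter ratio moved together: across the 43 genes Pearson's r was 0.36 and Spearman's rho 0.29, and across all genes both were 0.48. The points are genes of the same 2 libraries, not independent replicates. The CpG ratio (r = 0.10), the ratio of the surrounding 1 Mb (r = 0.08) and the ratio of the gene body away from TSSs (r = 0.00) varied little with the promoter ratio, and gene length varied inversely with it (r = -0.28 on a log10 scale).

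**Figure D2:**
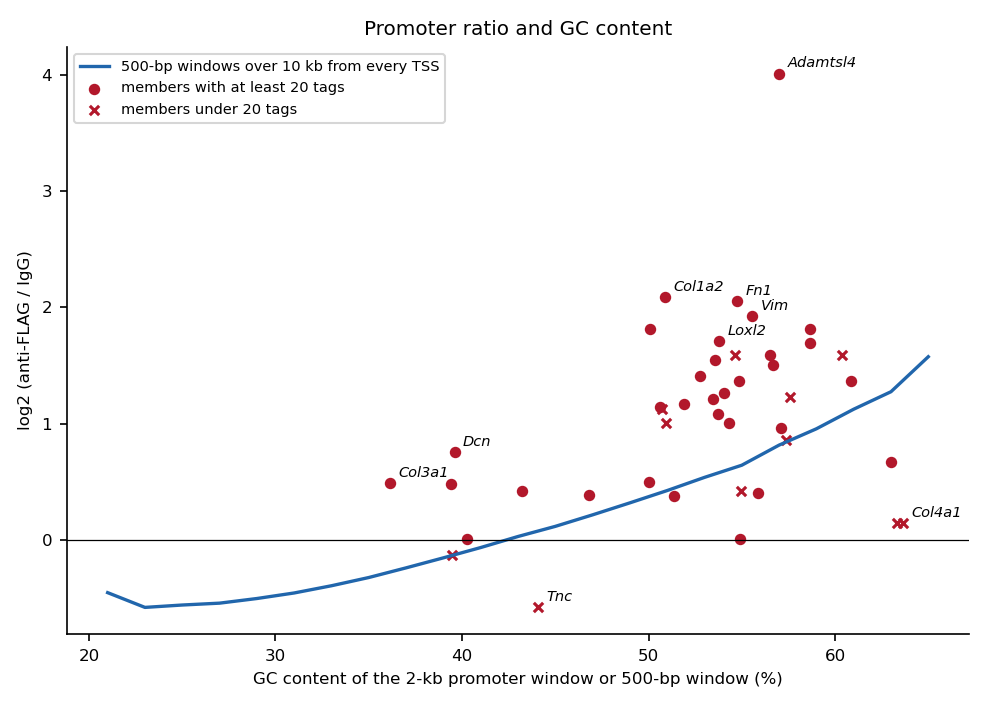
Log2 ratio of anti-FLAG to IgG tags within 1 kb of the TSS against the GC content of the same window for each of the 43 genes (red), with the ratio of distant 500-bp windows of each GC content as a line. Most genes lie above the line, Adamtsl4 furthest, whereas several lie below it, among them Col4a1, Col4a2, Tnc, Fbln1 and Col5a1.

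Widening the window to 2.5 kb brought all 43 genes to the tag minimum, and 19 were higher and 0 lower, where 10.4% of 20309 tested genes were higher and 0.148% lower. The median count was 52 anti-FLAG and 26 IgG tags, against 26 and 20 over all genes, so these shares too compare genes of unlike tag number. The median log2 ratio was 0.83, against 0.37 over all genes. Loxl2 had 131 against 46 tags (log2 ratio 1.50, exact adjusted p = 2.47e-07), Col1a2 106 against 38 (1.46, exact adjusted p = 7.69e-06) and Vim 86 against 27 (1.64, exact adjusted p = 1.02e-05). These 3 genes thus had log2 ratios of 1.46 or more across the wider window. Col3a1 passed here, with 112 against 63 (log2 ratio 0.83, exact adjusted p = 0.0066), as it had not within 1 kb. The other genes that passed within 2.5 kb and not within 1 kb were Col5a1 (52 against 22), Fbln2 (71 against 32), Adamts1 (53 against 20), which had been under the tag minimum, and S100a4 (55 against 25).

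Col1a1 (72 against 23), Col6a2 (50 against 24), Col12a1 (53 against 24), Fn1 (83 against 44), Lox (54 against 28), Loxl1 (45 against 18), Mmp2 (67 against 30), Mmp14 (60 against 28), Timp1 (48 against 21), Serpinh1 (53 against 21) and Adamtsl4 (55 against 21) passed in both windows. Outside 1 kb Adamtsl4 had nearly even counts, so that its log2 ratio was 1.36 in the wider window and 4.01 in the narrower. Dcn (108 against 87), Fbln5 (58 against 32) and Timp3 (53 against 30) passed within 1 kb but not within 2.5 kb (exact adjusted p = 0.337, 0.0539 and 0.0788). With the GC correction 4 genes were higher within 2.5 kb, where 0.97% of all genes were: Loxl2 (log2 ratio 1.29, exact adjusted p = 6.33e-05), Col1a2 (1.29, 0.000665), Col3a1 (1.06, 0.00228) and Vim (1.39, 0.0025). The corrected median was 0.57 over the 43 genes and 0.19 over all genes.

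**Figure D3:**
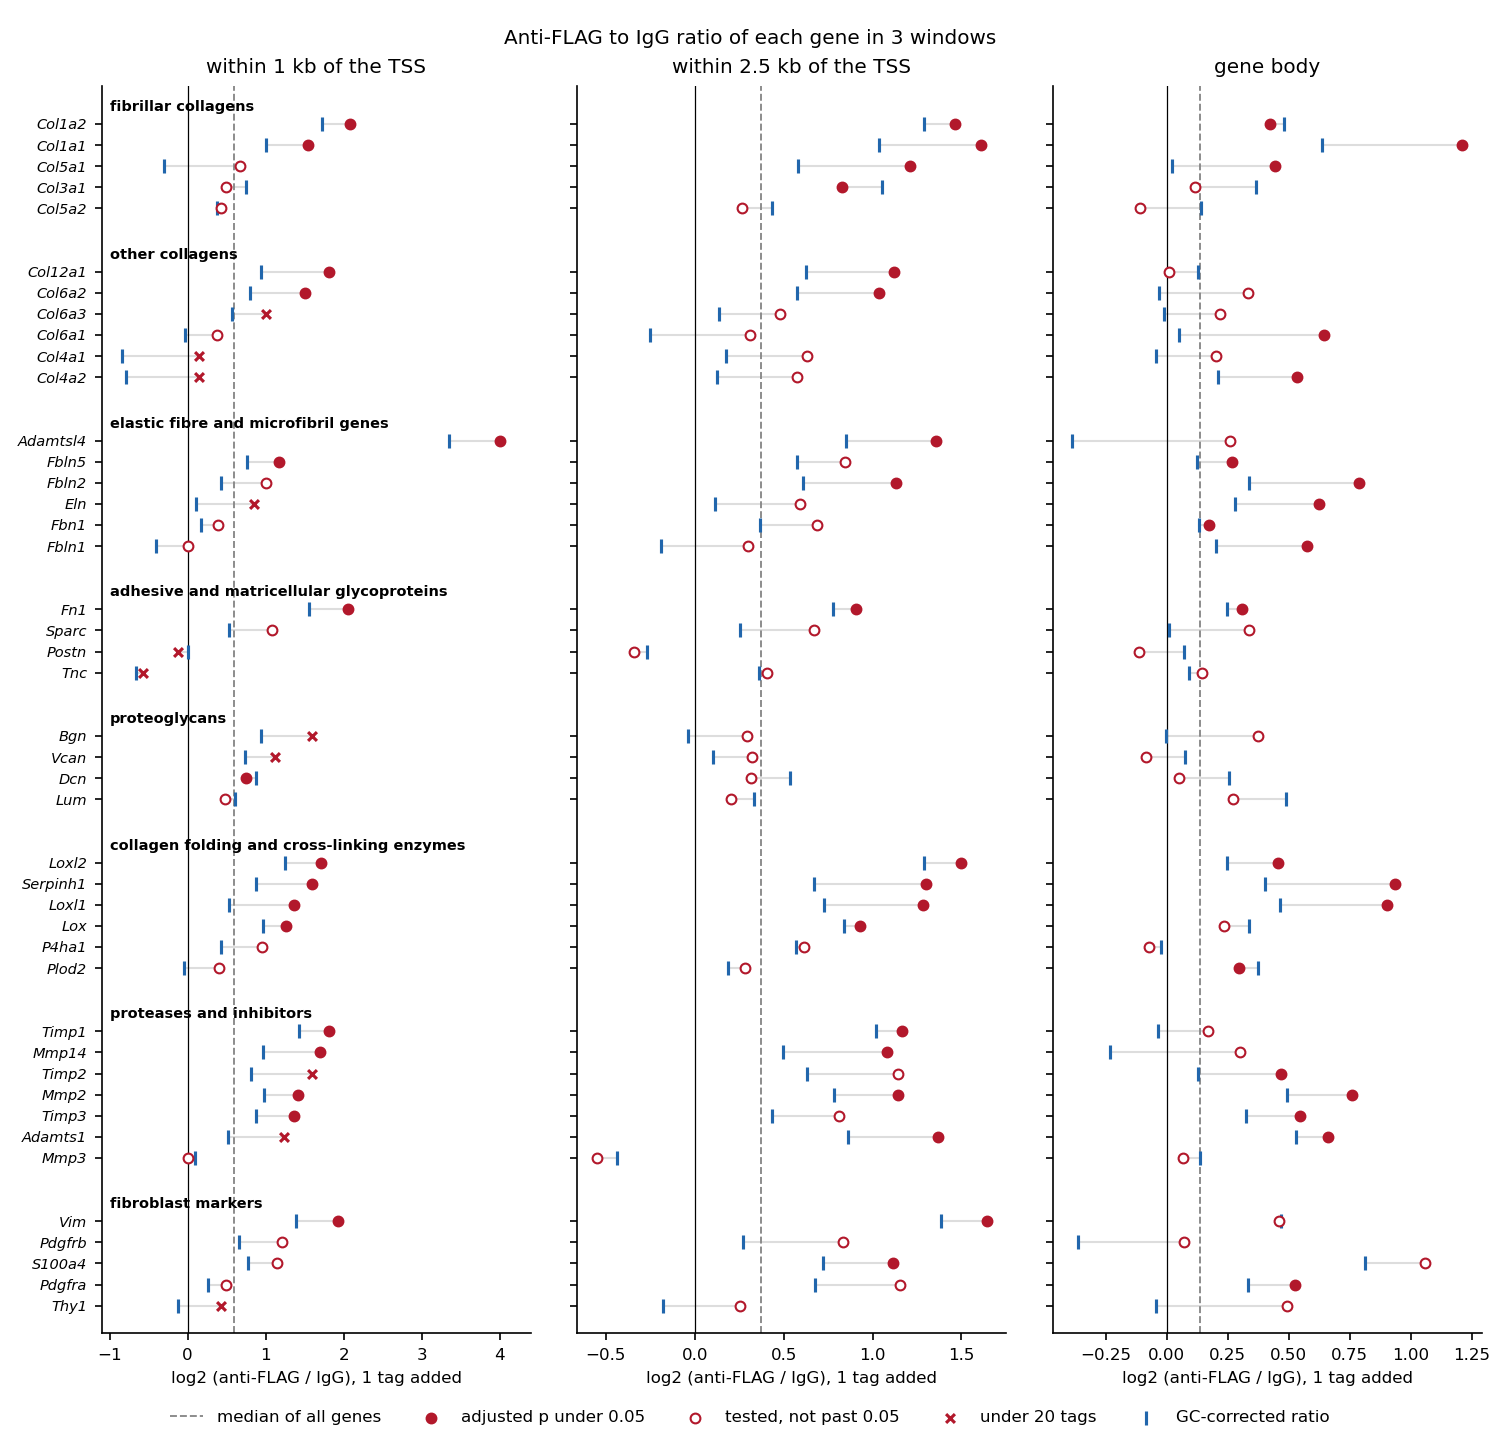
Log2 ratio of anti-FLAG to IgG tags (1 tag added to each count) for each gene within 1 kb of the TSS, within 2.5 kb and over the gene body, with the GC-corrected ratio as a blue bar and the median of all genes as a dashed line; the horizontal scale differs between panels. Filled points passed the adjusted exact test, 17, 19 and 20 genes in the 3 panels, and most blue bars lie to the left of their points.

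Around the TSS, the 43 genes had the common shape of promoters in these libraries, and an additional excess on both sides, with the larger ratio downstream. Within 250 bp of the TSS they held 279 anti-FLAG against 68 IgG tags, a ratio of 4.13 (95% exact interval 3.16 to 5.46), against 2.99 over all genes. In the bin from the TSS to 250 bp downstream, anti-FLAG density was 1.91 times and IgG density 0.443 times the flanking mean at 4 to 5 kb. IgG thus dipped where anti-FLAG peaked, and this dip is part of each ratio. From 1 to 2.5 kb downstream the 43 genes held 747 anti-FLAG against 406 IgG tags, a ratio of 1.85 (1.64 to 2.09), against 1.16 over all genes. In the matching stretch upstream the ratio was 1.39 (1.22 to 1.58), against 1.13 over all genes. Both ratios were also above those that distant windows of the same GC content gave, 1.20 downstream and 1.13 upstream. Col4a1 and Col4a2, which share a start, enter these sums separately.

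Downstream, 35 of the 43 genes had more anti-FLAG than IgG tags between 1 and 2.5 kb, 6 had equal counts and 2 fewer, against 11340, 2890 and 8120 of all 22350 genes. Counts were above the level that GC content gave at 34 genes (79.1%), against 51.7% of all genes. In the matching upstream stretch they were above it at 28 genes (65.1%), against 50.7% of all genes. The largest downstream excess was at Loxl2, with 55 against 17 tags, followed by Vim (30 against 10), Col3a1 (38 against 19), Col1a2 (37 against 18) and Adamts1 (27 against 8). Col1a1 (24 against 8), Vcan (21 against 5) and Col5a1 (21 against 6) followed. The downstream excess was thus spread over genes of several roles, while Timp1 (5 against 8) and Mmp3 (2 against 3) had fewer anti-FLAG tags there. The 43 genes were not tested against all others, and these values are descriptions of 1 pair of libraries.

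**Figure D4:**
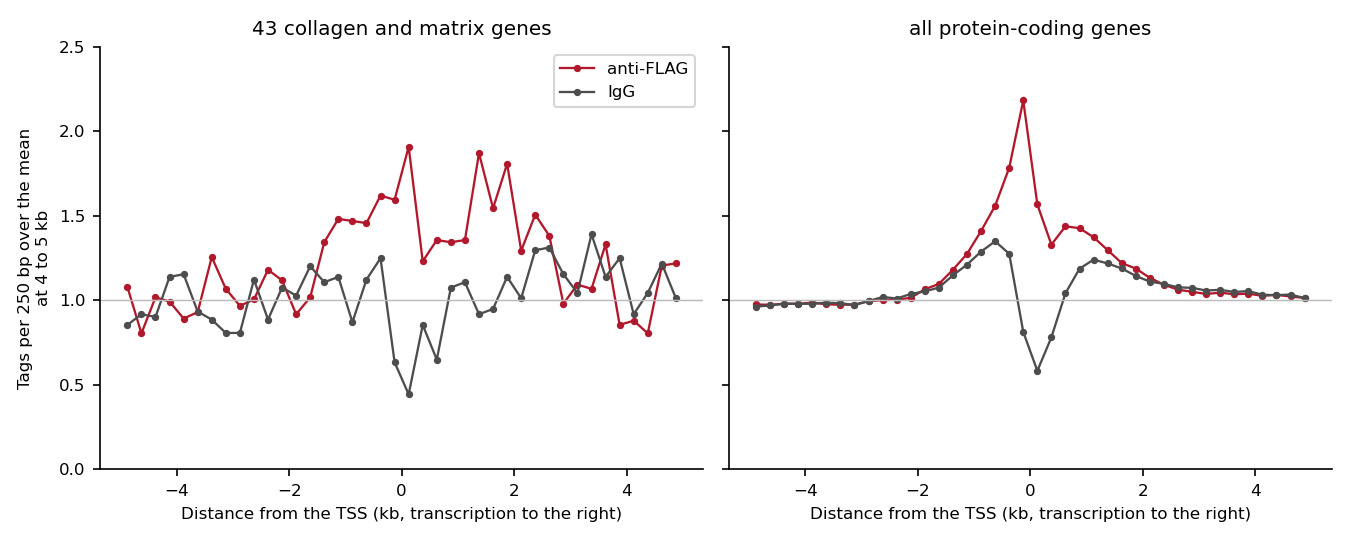
Tags per 250-bp bin over the mean at 4 to 5 kb from the TSS, anti-FLAG in red and IgG in grey, summed over the 43 genes and over all protein-coding genes, with distance from the TSS in kb and transcription to the right. In both sets anti-FLAG is raised and IgG dips at the TSS, and at the 43 genes anti-FLAG is raised again between 1 and 2 kb downstream.

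Over whole gene bodies, 20 of the 43 genes were higher and 0 lower with anti-FLAG, where 15.2% of 17825 tested genes were higher and 3.77% lower. The median log2 ratio was 0.33 over the 43 genes and 0.14 over all genes, so the differences were smaller than at promoters although the counts were larger. The median body count was 245 anti-FLAG and 181 IgG tags over the 43 genes, against 64 and 54 over all genes. Smaller ratios pass where counts are larger, so the body shares, here and below, compare genes of unlike tag number, as the promoter shares do. Col1a1 had the largest, with 181 anti-FLAG against 78 IgG tags (ratio 2.33, 95% exact interval 1.78 to 3.08, exact adjusted p = 9.5e-09). Serpinh1 (56 against 29), Loxl1 (209 against 112), Fbln2 (425 against 247) and Mmp2 (245 against 145) had log2 ratios of 0.76 to 0.93. The body count begins at the TSS, so it does not separate the body from the start of these 5 genes. With the GC correction none of the 5 passed over the body (exact adjusted p from 0.0554 for Col1a1 to 0.706 for Serpinh1). The most tags were in Fbn1, the longest gene of the list at 207400 bp, with 1432 against 1276 (log2 ratio 0.17, exact adjusted p = 0.0146).

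The other genes higher over their bodies were Col1a2 (493 against 369), Col4a2 (984 against 684), Col5a1 (835 against 618), Col6a1 (97 against 62), Fn1 (652 against 530), Fbln1 (462 against 312), Fbln5 (486 against 406), Eln (166 against 108), Loxl2 (1073 against 787), Timp2 (321 against 233), Timp3 (593 against 408), Plod2 (507 against 415), Adamts1 (84 against 53) and Pdgfra (231 against 161). Their log2 ratios ran from 0.27 for Fbln5 to 0.66 for Adamts1. The body ratio was above that of the surrounding 1 Mb at all of these but Timp2 (1.39 against 1.46). At Col5a1 the 2 ratios were close (1.36 against 1.31). Bodies were not tested against their surroundings. Col4a2, Col6a1, Fbn1, Fbln1, Eln, Timp2, Plod2 and Pdgfra were higher over the body and not within 1 kb or 2.5 kb. The partner genes Col4a1 (709 against 620, exact adjusted p = 0.0579) and Col5a2 (1041 against 1131, 0.208) did not pass. Anti-FLAG tags were fewer than IgG tags over the bodies of Col5a2, Postn (114 against 124), Vcan (404 against 431) and P4ha1 (442 against 467). With the GC correction the log2 ratio of Col5a2 was 0.14, that of Postn 0.07 and that of Vcan 0.08, so the sign at these 3 genes depended on the correction, whereas that of P4ha1 was -0.02 and kept its sign. Per kb of gene, anti-FLAG density ran from 3.81 tags in Postn to 13.4 in Col1a2, and IgG density from 2.48 in Eln to 11.3 in Col3a1.

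When 1 kb around every annotated TSS was left out of the bodies, 16 of the 43 genes remained higher, where 11.1% of all genes were. Col6a1, Fbln5, Serpinh1 and Adamts1 were the genes no longer past the threshold (exact adjusted p = 0.0623, 0.0829, 0.117 and 0.0653). With the GC correction 5 genes were higher over the whole body, where 0.971% of all genes were: Col1a2 (log2 ratio 0.48, exact adjusted p = 0.000698), Plod2 (0.38, 0.0186), Col3a1 (0.37, 0.0231), Loxl2 (0.24, 0.0325) and Timp3 (0.32, 0.0411). Away from TSSs 4 of them, all but Timp3, passed, where 0.641% of all genes did. Col3a1 is GC-poor and passed over the body with the correction alone, having 466 against 432 tags. The corrected median over the 43 bodies was 0.14, against 0.03 over all genes. Loxl2 and Col1a2 were thus the genes that passed with the GC correction in each of the 3 windows.

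Anti-FLAG tags were concentrated into called regions at some of these genes. A region joined 500-bp windows that each had 10 or more anti-FLAG tags, a fold of 2 or more over local background, and a one-sided exact Poisson p below 1e-05. Of the 43 genes, 10 had a region in the promoter window, where 7.33% of all genes did, and 13 had one in the gene body outside it, where 7.22% did. After the correction the counts were 4 (2.85% of all genes) and 9 (5.35%). The body shares were not matched for tag number or gene length. The median body held 245 anti-FLAG tags over the 43 genes, against 64 over all genes. With IgG tested against anti-FLAG instead, regions were rare at all genes (0.00895% of promoter windows and 0.362% of bodies), and 0 of the 43 had one. The promoter regions belonged to Col1a1, Col12a1, Lox, Loxl2, Dcn, Mmp2, Mmp14, Serpinh1, Adamtsl4 and Vim, and those of Loxl2, Dcn, Mmp2 and Adamtsl4 were also called with the GC correction. The body regions belonged to Col1a2, Col4a2, Col5a1, Col6a2, Col6a3, Fbln1, Fbln5, Loxl1, Loxl2, Dcn, Timp3, Plod2 and Pdgfra, and all but that of Col6a2, in an exon, were centred in introns. The body regions of Col1a2, Col5a1, Col6a2 and Col6a3 were not called with the GC correction.

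The 2 promoter regions of smallest p lay at Adamtsl4 and Loxl2. The Adamtsl4 region, chr3:95492001-95492750, lay outside the gene with its centre 536 bp upstream of the TSS and held 22 anti-FLAG and 0 IgG tags (19 against 0 in its strongest window, exact one-sided Poisson p = 1.29e-11). The Loxl2 promoter region, chr14:70008001-70008750, centred 602 bp upstream, held 33 against 8 (24 against 4 in the strongest window, exact p = 2.35e-11). A further Loxl2 region in an intron, chr14:70010501-70011250, centred 1898 bp downstream of the TSS, held 31 against 7 (26 against 1 in the strongest window, exact p = 9.25e-11), and a weaker one lay 5023 bp downstream. Loxl2 thus had regions on both sides of its start. The central 300 bp of the Loxl2 intronic region (chr14:70010726-70011025, plus strand), the member region of smallest p away from a TSS, and of the Adamtsl4 region (chr3:95492226-95492525, minus strand), chosen after its values were seen, read as follows, with capitals for the same elements.
Loxl2 region: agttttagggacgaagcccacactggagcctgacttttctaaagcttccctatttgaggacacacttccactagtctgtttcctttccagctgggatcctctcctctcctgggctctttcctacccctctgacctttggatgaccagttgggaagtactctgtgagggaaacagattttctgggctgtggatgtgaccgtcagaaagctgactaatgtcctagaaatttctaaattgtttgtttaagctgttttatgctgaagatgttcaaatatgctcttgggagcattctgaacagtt
Adamtsl4 region: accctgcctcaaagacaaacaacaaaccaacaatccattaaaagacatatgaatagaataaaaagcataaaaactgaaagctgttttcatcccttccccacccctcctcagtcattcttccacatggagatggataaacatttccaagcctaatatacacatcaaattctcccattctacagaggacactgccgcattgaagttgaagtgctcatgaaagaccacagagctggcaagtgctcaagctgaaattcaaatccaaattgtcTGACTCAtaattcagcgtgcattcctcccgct
The Loxl2 stretch holds none of the elements searched, and the Adamtsl4 stretch holds 1 AP-1 element. Both are poorer in GC (45.0% and 41.3%) than the promoter stretches of the same genes (64.0% and 63.7%).

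Fbln1 had equal counts at its promoter and 4 regions in its introns, the most of any gene of the list. They were centred 26247, 39622, 43622 and 60997 bp downstream of the TSS and held 46 against 9, 17 against 2, 18 against 4 and 16 against 2 tags. All 4 were also called with the GC correction. Loxl1 had intronic regions 7393 and 13643 bp downstream of its TSS with 23 against 2 and 18 against 1 tags, and Timp3 had them 31634 and 39384 bp downstream with 22 against 4 and 18 against 1. Fbln5 had 2 (20 against 3 and 12 against 1), Col4a2 had 2 (35 against 5 and 14 against 1) and Dcn 1 (25 against 7), 4506 bp downstream. In Col1a2 the region lay 1437 bp downstream of the TSS in an intron, with 18 against 4 tags. That region, the Timp3 one of 18 against 1 tags and the Col4a2 one of 14 against 1 were not called with the GC correction. The plot of tags along 4 genes shows that anti-FLAG tags stood in narrow clusters along Fbln1, whereas along Col1a2 they were spread more widely on both sides of the TSS. Its fullest bin, 5000 to 5500 bp downstream, held 18 anti-FLAG against 9 IgG tags.

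**Figure D5:**
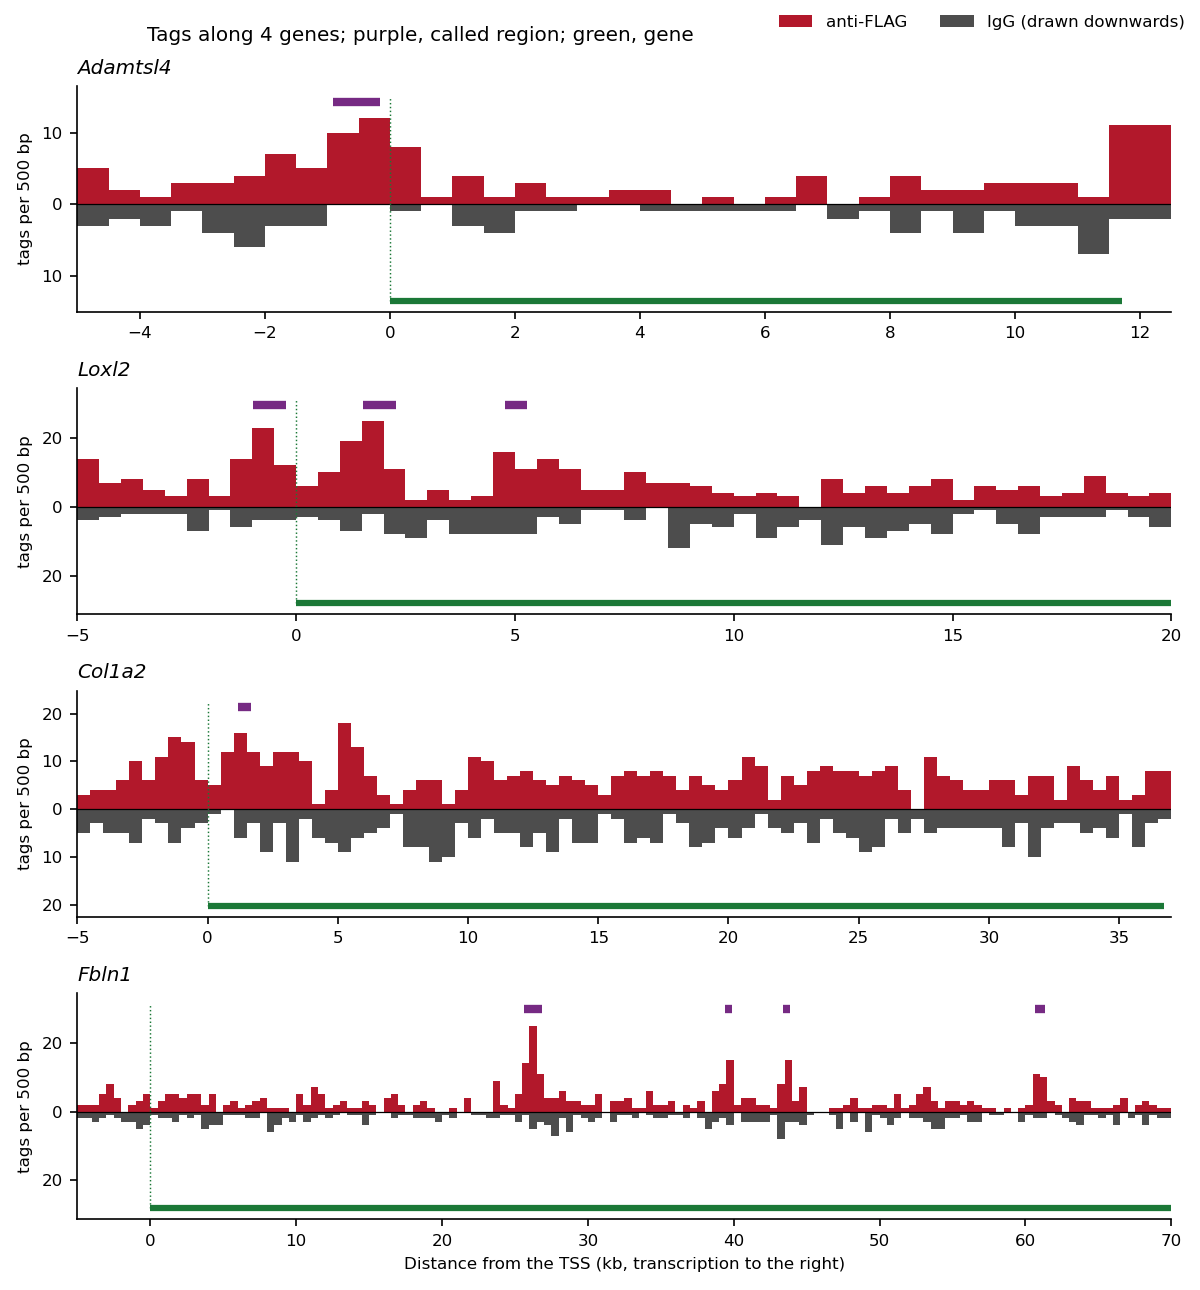
Tags per 500 bp along Adamtsl4, Loxl2, Col1a2 and Fbln1, anti-FLAG upwards in red and IgG downwards in grey, with distance from the TSS in kb and transcription to the right; purple bars are called regions and green bars the gene. The Adamtsl4 region lies just upstream of the TSS, where IgG has 0 tags, Loxl2 has regions on both sides of the TSS, and Fbln1 has 4 intronic regions, the last centred 60997 bp downstream.

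Other matrix genes gave a reference for the list. Among 124 further collagens, laminins, fibre-associated, processing and protease genes, 64 could be tested within 1 kb, and 17 were higher and 0 lower with anti-FLAG. That is 26.6%, near the 29.7% of all tested genes. Their median log2 ratio was 0.62 over all 124, near the 0.59 of all genes, and with the GC correction it was 0.12, with 0 genes past the threshold. The 5 of smallest p were Ddr2 (42 against 12 tags), the gene of a collagen receptor kinase, Bmp1 (22 against 3), the gene of the protease that trims procollagen ends, Ltbp3 (45 against 15) and Ltbp4 (19 against 2), genes of proteins that tether latent TGF-beta, and Efemp2 (32 against 9), the gene of fibulin-4. Their exact adjusted p ran from 0.00121 for Ddr2 to 0.004 for Efemp2, and 0.0515 to 0.182 with the GC correction. Within 2.5 kb 14 of 118 tested genes were higher (11.9%, near the 10.4% of all tested genes). Over the gene body 35 of 122 were higher (28.7%) and 5 lower, where 15.2% of all tested genes were higher and 3.77% lower. Their median body count was 149.5 anti-FLAG and 123 IgG tags, against 64 and 54 over all genes. The difference between the 43 genes and these 124 was not tested.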

How the data were processed

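Tags were measured in 2 ChIP-seq libraries, grouped by the antibody in the labels. Per the labels' protocols, formaldehyde-fixed chromatin was sheared, precipitated and made into Illumina libraries. The deposited files hold the start, end and strand of every tag, and each line was taken as a count of 1. No aligner or build is named in the sources used here. Tags of 36 bp matched the chromosome lengths of NCBIM37, apart from 4 anti-FLAG and 2 IgG tags past a chromosome end, and 0 tags shared both position and strand with another of their library.

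Tags on the 19 autosomes and X were shifted downstream by 77 bp, from the 155-bp lag between strands in the anti-FLAG library. The TSS was the 5′ end of the annotated gene. Counts were tested as described in the report, using SciPy 1.17.1 and NumPy 2.4.6 under Python 3.11.15, with plots from Matplotlib 3.10.9. The calls of the exact test were checked on data simulated from its own binomial model. That simulation held no GC difference between libraries, so it cannot show how the test behaves under one. The GC correction took the expected ratio in 500-bp tiles, in strata of 2 GC points. Local background of a region was the highest of 4 IgG estimates: the window itself, 5 kb, 10 kb, or the genome. The genes, the 124 related genes and the tests were chosen with earlier results of these data known. Full statistics are given for genes past the test, otherwise for the 2 of smallest p in each role. Related genes are named if past the corrected test, otherwise the 5 of smallest p. Sequences are from the NCBIM37 reference. Alternatives changed the scaling, window, shift, tag minimum, added tag, GC correction, exons and region threshold. Intervals are at the 95% level.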

Additional observations from a re-analysis of the deposited data

How the results depend on the processing

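With 1 library per antibody, no library could be left out, and every value rests on the counting error of 1 pair. No paired analysis was possible because each antibody had 1 library. Promoters with few tags could not be tested, and a gene that did not pass may still differ. The GC correction lowered the counts of higher genes to 3 of the 32 tested within 1 kb. Of all 43 genes, it left 4 within 2.5 kb, 5 over the gene body and 4 over the body away from TSSs. It lowered the median log2 ratios within 1 kb, within 2.5 kb and over the gene body to 0.66, 0.57 and 0.14. It also lowered the genes with a promoter region to 4. With IgG scaled by 0.909, the ratio in background bins, the corrected count within 1 kb was 6, against 6.94% of all tested genes. This scaling added Fn1, Dcn and Vim. With GC taken over the whole window the corrected count was 2 (Col1a2 and Adamtsl4), against 1.11% of all tested genes. These 2 settings were chosen after seeing the data, as were the corrected medians and the correction away from TSSs. Within 500 bp of the TSS 14 genes could be tested and 11 were higher, where 62.4% of all tested genes were. A 2-fold ratio in place of the test left 2 gene bodies, against 5.76% of all tested genes. A region threshold of 1e-07 left 3 genes with a promoter region and 6 with a body region, where 3.07% and 3.12% of all genes had one. Under the remaining settings 13 to 21 genes were higher within 1 kb, 18 to 26 within 2.5 kb and 16 to 27 over the body. The share of all tested genes that were higher also moved with the setting, from 12.2% to 48.2% within 1 kb. That share ran from 9.25% to 17.97% within 2.5 kb and from 10.68% to 27.9% over the body. The ranges for the 43 genes thus partly follow settings that move all genes. Among single genes past the test, 24 of 112 tested repeats within 1 kb, 15 of 95 within 2.5 kb and 26 of 140 over the body were not past the threshold. Within 2.5 kb every such loss came with the GC correction. In these repeats 0 changed direction, but some could not. Another tag minimum reuses the same counts, and scaling IgG by 0.909 raises every ratio. Within 500 bp, 7 genes that had passed within 1 kb fell under the tag minimum and were not tested.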
